A study of Homo sapiens with 18 samples.

Results

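The messenger RNA of 9 genes that build and load MHC class I molecules was followed in GM12878, an EBV-transformed human lymphoblastoid B-cell line, after knockout of each NF-kB subunit. The genes were taken by symbol from a table of 17155 genes: HLA-B and HLA-C (classical heavy chains), HLA-E and HLA-F (non-classical heavy chains), B2M (the light chain), TAP1, TAP2 and TAPBP (peptide transport and loading) and NLRC5 (a transcriptional activator of class I genes). All 9 were in the table, and all 9 passed the filter of a mean of at least 10 normalised reads that left 12381 genes for testing. The 5 knockout groups carried lentiviral guides against cRel (gene REL), p50 (NFKB1), p52 (NFKB2), RelA (RELA) and RelB (RELB), and the control carried a non-targeting guide. Each group had 3 libraries of polyadenylated RNA. All groups, the control included, were GM12878 cells labelled as wild type for LMP1, were transduced with lentivirus and were kept for 5 days in puromycin (3 µg/ml). Knockout was checked by immunoblot, per the labels' protocols. The sources used here give neither the number of guides per gene nor whether the cells were clonal. Values are normalised read counts per library, and ± marks the SD over the 3 libraries of a group unless SE is stated. Fold changes are on the log2(value + 1) scale from limma, and a gene counts as called where its Benjamini-Hochberg adjusted p was below 0.05.

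MHC class I molecules carry peptides from inside the cell to its surface, where CD8+ T cells and natural killer cells read them. Peptides cut by the proteasome cross into the endoplasmic reticulum through the TAP1-TAP2 transporter, and tapasin (TAPBP) holds an empty heavy chain paired with beta-2 microglobulin (B2M) beside the transporter until a peptide is bound. Transcription of these genes is known to respond to NF-kB, to interferon through IRF and STAT factors, and to NLRC5 acting with the RFX complex and NF-Y. In EBV-transformed B cells the viral protein LMP1 keeps both NF-kB pathways active: RelA, cRel and p50 act mainly in the canonical pathway, and RelB and p52 in the non-canonical one.

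The promoters show which of the known elements lie near each start site. RefSeq promoters (GRCh38.p14) were found for 7 of the 9 genes, and HLA-E and NLRC5 were not matched. Shown are the 250 bases before the start, 5′ to 3′ on the gene's strand, of the gene with the largest change (HLA-F), a classical heavy chain (HLA-B), the light chain and the 2 transporter genes. Capitals mark matches to the NF-kB consensus and to 2 ISRE-like patterns (the interferon response element), TTTCNNTTT and TTTCNNTTC, on either strand.
HLA-F, chr6:29723184-29723433, plus strand: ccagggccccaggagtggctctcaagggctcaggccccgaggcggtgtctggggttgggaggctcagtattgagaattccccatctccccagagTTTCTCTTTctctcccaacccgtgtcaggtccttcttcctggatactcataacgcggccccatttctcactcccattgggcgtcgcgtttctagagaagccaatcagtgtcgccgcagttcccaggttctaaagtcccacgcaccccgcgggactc
HLA-B, chr6:31357180-31357429, minus strand: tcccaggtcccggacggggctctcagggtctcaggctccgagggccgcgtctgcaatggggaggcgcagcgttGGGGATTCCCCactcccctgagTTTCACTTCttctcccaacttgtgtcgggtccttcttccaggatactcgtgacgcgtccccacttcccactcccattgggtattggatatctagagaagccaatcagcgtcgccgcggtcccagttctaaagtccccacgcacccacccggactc
B2M, chr15:44711267-44711516, plus strand: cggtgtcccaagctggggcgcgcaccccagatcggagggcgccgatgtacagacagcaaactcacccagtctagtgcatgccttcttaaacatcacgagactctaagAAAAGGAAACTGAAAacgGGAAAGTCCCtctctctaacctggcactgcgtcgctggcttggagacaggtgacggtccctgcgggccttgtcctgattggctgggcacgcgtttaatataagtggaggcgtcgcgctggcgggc
TAP1, chr6:32853705-32853954, minus strand: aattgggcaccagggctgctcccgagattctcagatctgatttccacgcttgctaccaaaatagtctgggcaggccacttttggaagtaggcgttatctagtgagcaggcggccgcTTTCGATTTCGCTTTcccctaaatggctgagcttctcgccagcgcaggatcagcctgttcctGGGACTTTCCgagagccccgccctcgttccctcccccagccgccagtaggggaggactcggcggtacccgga
TAP2, chr6:32838740-32838989, minus strand: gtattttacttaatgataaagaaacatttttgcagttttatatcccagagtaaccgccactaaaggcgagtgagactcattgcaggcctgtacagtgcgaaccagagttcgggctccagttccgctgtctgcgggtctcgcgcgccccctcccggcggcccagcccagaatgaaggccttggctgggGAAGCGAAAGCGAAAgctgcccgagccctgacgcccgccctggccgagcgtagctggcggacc
Matches were counted from 250 bases before to 50 bases after the start. The NF-kB consensus was found in HLA-B, HLA-C, B2M, TAP1 and TAPBP and not in the windows of HLA-F and TAP2, against 11.3% of 35116 RefSeq promoters. It lay 177 to 167 bases before the start in HLA-B, 72 to 63 bases before it in TAP1 and, on the other strand, 125 to 116 bases before it in B2M. All 7 promoters held an ISRE-like pattern. TTTCNNTTT was found in 10.5% of all promoters and TTTCNNTTC in 7.66%. The kB-like pattern GGGNNTTCC, which overlaps the consensus in HLA-B and TAPBP, was found in HLA-B, TAPBP and B2M and in 6.58% of all promoters. GGGATTCC was found in HLA-B alone of the 7 and in 1.12% of all promoters. The Y-box letters CCAAT, read by NF-Y, were found in HLA-B, HLA-C, HLA-F, TAP1 and B2M and in 34.6% of all promoters. TGACG, part of the X2 box, was found in HLA-B, HLA-C, TAP2 and B2M and in 24.6% of all promoters. Each match is a run of letters and was not tested for binding, and the consensus was added to the search after the sequences had been seen.

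Recovered reads ranged from 15.2 to 37.5 M per library with a median of 22.1 M, and 1 read was worth 0.646 to 1.46 normalised reads. Along the leading principal component (51.1% of the variance) the RelB-labelled libraries (49.8 to 52.7) lay furthest from the controls (-26.6 to -20.8). Control library 3 and p52 library 3 had the lowest rank correlations (-0.45 and -0.38) between transcript length and a gene's deviation from its group mean. Others came close in size, with 0.36 in control library 2 and -0.31 in RelA library 2. Values within a group offset one another, since the deviations are from that group's own mean. NFKB1 averaged 4685 ± 56.4 in the p50 knockout and 7066 ± 304.9 in the control, NFKB2 6320 ± 172 in the p52 knockout and 8566 ± 138 in the control, and RELA 1368 ± 35.4 in the RelA knockout and 2208 ± 31.6 in the control. REL averaged 1298 ± 16.6 in the libraries labelled cRel and 1376 ± 457 in the control, where libraries ranged from 856 to 1717. RELB rose to 4107 ± 170.3 in the libraries labelled RelB, against 3319 ± 158 in the control (adjusted p = 1.69e-04, limma). These groups are therefore called cRel-labelled and RelB-labelled, since no fall of their target mRNA was called. For REL the spread between control libraries leaves a fall unresolved (log2 -0.02, adjusted p = 0.959, limma). The mRNA level does not measure the protein, which was checked by immunoblot per the labels' protocols. The B-cell markers MS4A1 (20072 to 29502) and CD74 (72242 to 103890) were high in all 18 libraries. Of the markers of other cell types, CD3D (0 to 1.63) and CD14 (0 to 3.16) were at or near 0, while NKG7 (290 to 702), CSF1R (307 to 758) and ITGAM (86.2 to 267) were detected in every library.

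The largest change of the class I genes was in the RelB-labelled libraries. There 8 of the 9 genes rose and none fell, while 33.1% of all tested genes rose and 67.8% changed in either direction. In all 8 the 3 RelB-labelled libraries lay above the 3 controls, as they did in 34.3% of all tested genes. The increases ran from 0.25 for TAP1 to 1.24 for HLA-F on the log2 scale, with a median of 0.46 over the 9 genes, against a median of -0.0038 over all genes tested. TAP2 was the exception. The 9 genes together took 0.934% ± 0.0247 of all reads in the RelB-labelled libraries and 0.641% ± 0.0303 in the control. In bulk RNA, a change in RNA per cell and a change in the share of cells that express a gene cannot be told apart.

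**Figure D1:**
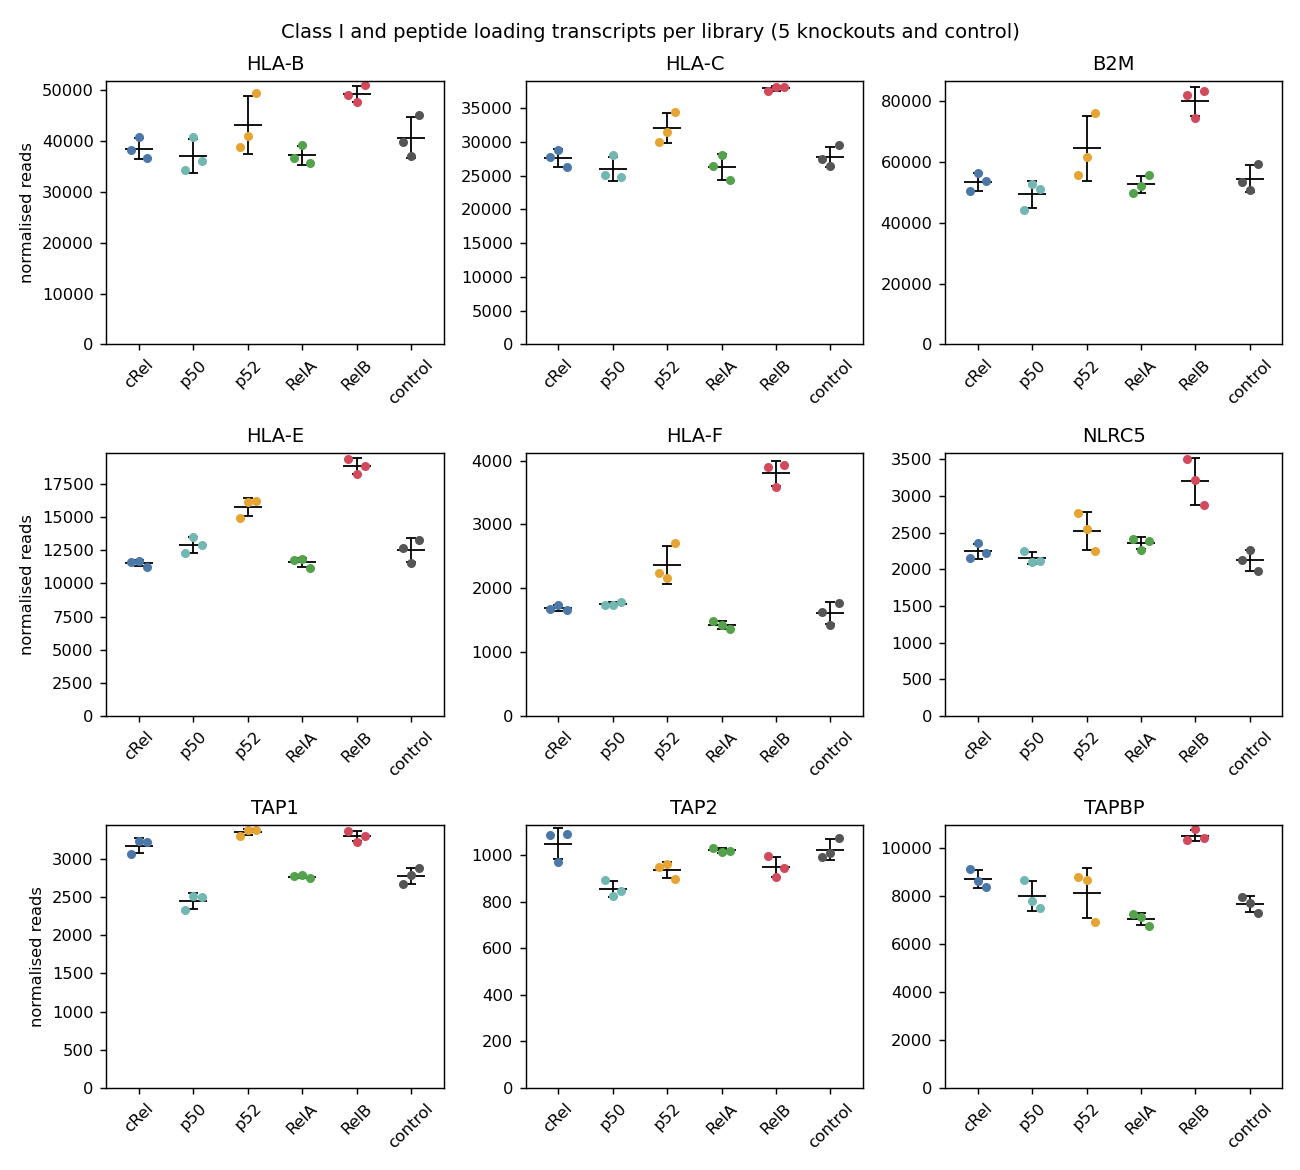
Normalised read counts (vertical axes, linear and starting at 0) of the 9 genes in the 3 libraries (points) of each knockout and the control (horizontal axes), with the mean (dash) and SD (bars). The RelB-labelled libraries lie above all controls for 8 genes and overlap them for TAP2.

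Both non-classical heavy chains rose, and HLA-F had the largest increase of the 9 genes. HLA-F, which can reach the surface without peptide, had 3892, 3579 and 3924 normalised reads in the RelB-labelled libraries, against 1633, 1428 and 1777 in the control. All 3 libraries lay above all 3 controls, and the level was 2.36-fold higher (log2 1.24 ± 0.08 SE, adjusted p = 9.49e-12, limma). HLA-E, which presents leader peptides of other heavy chains to the receptor CD94/NKG2 of natural killer cells, had 19412, 18232 and 18874 in the RelB-labelled libraries, against 12684, 11519 and 13294 in the control. It rose 1.51-fold without overlap between the groups (log2 0.59 ± 0.06 SE, adjusted p = 1.99e-08, limma). HLA-F overlaps an antisense gene, HLA-F-AS1, which averaged 26.0 ± 5.8 in the RelB-labelled libraries and 10.0 ± 4.7 in the control. Reads of HLA-F and of its antisense gene cannot be told apart where counting did not use the strand.

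The classical heavy chains and the light chain rose by smaller steps. HLA-C had 37556, 38175 and 38196 normalised reads in the RelB-labelled libraries, against 27427, 26508 and 29494 in the control (log2 0.45 ± 0.07 SE, adjusted p = 9.53e-06, limma). HLA-B had 49102, 47696 and 50907 in the RelB-labelled libraries, against 39741, 37125 and 45034 in the control (log2 0.28 ± 0.09 SE, adjusted p = 8.34e-03, limma). B2M, which pairs with every class I heavy chain, had 81978, 74595 and 83310 in the RelB-labelled libraries, against 53534, 50719 and 59330 in the control (log2 0.55 ± 0.10 SE, adjusted p = 3.68e-05, limma). In all 3 genes the groups did not overlap. The HLA-B call was lost without control library 2 (log2 0.22, adjusted p = 0.0542, limma). The heavy chain genes are near-identical over long stretches, so reads may be split between them or lost, and their values are uncertain for that reason.

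Of the loading genes, TAPBP and TAP1 rose and TAP2 did not. TAPBP, the bridge between transporter and heavy chain, had 10331, 10758 and 10411 normalised reads in the RelB-labelled libraries, against 7955, 7706 and 7278 in the control (log2 0.46 ± 0.08 SE, adjusted p = 1.71e-05, limma). TAP1 had 3362, 3228 and 3302 in the RelB-labelled libraries, against 2667, 2788 and 2875 in the control (log2 0.25 ± 0.05 SE, adjusted p = 2.31e-04, limma). Neither gene overlapped between the groups. TAP2, the other subunit of the same transporter, had 997, 909 and 946 in the RelB-labelled libraries, against 992, 1009 and 1074 in the control, and did not pass the test (log2 -0.11 ± 0.06 SE, adjusted p = 0.137, limma). TAP1 overlaps PSMB9 and PSMB8-AS1 on the other strand in GENCODE 29, and the sources used here do not say whether counting used the strand. NLRC5, the activator, had 3502, 3213 and 2875 in the RelB-labelled libraries, against 2123, 2270 and 1980 in the control, and rose without overlap (log2 0.59 ± 0.08 SE, adjusted p = 6.52e-07, limma).

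The p52 knockout, which shares its 3 controls with the other knockouts, came next in the number of class I genes called. In the p52 knockout 5 of the 9 genes rose and none fell, beside 24.5% of all tested genes that rose and 50.8% that changed in either direction. HLA-F had 2233, 2161 and 2702 normalised reads in the p52 knockout, against 1633, 1428 and 1777 in the control (log2 0.55 ± 0.08 SE, adjusted p = 5.58e-06, limma). HLA-E had 14959, 16114 and 16213 in the p52 knockout, against 12684, 11519 and 13294 in the control (log2 0.34 ± 0.06 SE, adjusted p = 9.90e-05, limma). TAP1 had 3304, 3382 and 3373 in the p52 knockout, against 2667, 2788 and 2875 in the control (log2 0.27 ± 0.05 SE, adjusted p = 1.55e-04, limma). In these 3 genes and in HLA-C all 3 p52 knockout libraries lay above the controls, as they did in 25.8% of all tested genes.

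HLA-C and NLRC5 were called in the p52 knockout with less margin. HLA-C had 30072, 31553 and 34439 normalised reads in the p52 knockout, against 27427, 26508 and 29494 in the control, without overlap (log2 0.20 ± 0.07 SE, adjusted p = 0.0225, limma). Its call was lost without control library 1 (adjusted p = 0.0604), control library 2 (adjusted p = 0.0908) or p52 library 3 (adjusted p = 0.0992, limma). A fit of the p52 and control libraries alone also lost the HLA-C call (adjusted p = 0.0941, limma). NLRC5 had 2771, 2551 and 2254 in the p52 knockout, against 2123, 2270 and 1980 in the control, and the groups overlapped (log2 0.25 ± 0.08 SE, adjusted p = 0.0104, limma). Its call was lost without control library 3 (adjusted p = 0.0533) or p52 library 1 (adjusted p = 0.0742, limma). B2M had 55689, 61529 and 76319 in the p52 knockout, against 53534, 50719 and 59330 in the control, and missed the threshold (log2 0.23 ± 0.10 SE, adjusted p = 0.0529, limma). B2M passed in 8 of 30 alternatives, among them a replicate block (adjusted p = 0.0202) and the count tests (adjusted p = 0.0286 with edgeR and 0.0220 with DESeq2). Without p52 library 3 its log2 fold change was 0.11 (adjusted p = 0.340, limma). HLA-B and TAPBP were both at a log2 fold change of 0.08 and did not pass. TAPBP passed without p52 library 3 (log2 0.19, adjusted p = 0.0188, limma), a library at 6891 beside 8760 and 8673 in the other p52 libraries. After quantile normalization TAPBP (log2 0.27, adjusted p = 4.38e-03) and B2M (0.34, adjusted p = 3.40e-03, limma) both passed, which made 7 of the 9 genes. TAP2 was lower in all 3 p52 knockout libraries than in any control (950, 965 and 899, against 992, 1009 and 1074) and did not pass (log2 -0.13 ± 0.06 SE, adjusted p = 0.101, limma). Such a placing below the controls held for 26.7% of all tested genes.

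The genes called in the p50 knockout were the 2 subunits of the transporter. In the p50 knockout TAP1 and TAP2 fell and no class I gene rose, beside 19.6% of all tested genes that fell and 36.7% that changed in either direction. TAP2 had 895, 825 and 849 normalised reads in the p50 knockout, against 992, 1009 and 1074 in the control (log2 -0.26 ± 0.06 SE, adjusted p = 3.10e-03, limma). TAP1 had 2333, 2508 and 2504 in the p50 knockout, against 2667, 2788 and 2875 in the control (log2 -0.18 ± 0.05 SE, adjusted p = 9.09e-03, limma). Both subunits were lower in every p50 library than in any control, as were 23.8% of all tested genes, and the TAP1 call was lost in a fit of the p50 and control libraries alone (adjusted p = 0.0690) and after quantile normalization (adjusted p = 0.145, limma). The 7 other genes ranged from -0.14 (B2M) to 0.13 (HLA-F) on the log2 scale and did not pass. After quantile normalization HLA-E (log2 0.20, adjusted p = 0.0169) and TAPBP (0.20, adjusted p = 0.0444, limma) were called higher in the p50 knockout. HLA-F was called higher there (0.20, adjusted p = 0.0164, limma) without control library 3 and p52 library 3 together, an alternative chosen after seeing the data.

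Few of the 9 genes were called for the canonical subunits cRel and RelA. In the cRel-labelled libraries 1 of the 9 genes rose and none fell, beside 4.17% of all tested genes that rose and 6.09% that changed in either direction. That gene was TAP1, with 3062, 3239 and 3218 normalised reads in the cRel-labelled libraries, against 2667, 2788 and 2875 in the control (log2 0.19 ± 0.05 SE, adjusted p = 0.0269, limma). The call was lost without control library 1 (adjusted p = 0.106), control library 2 (0.0519), cRel library 2 (0.121) or cRel library 3 (0.118, limma adjusted p). TAPBP was higher in all 3 cRel-labelled libraries (9125, 8625 and 8383, against 7955, 7706 and 7278 in the control) and did not pass (log2 0.19 ± 0.08 SE, adjusted p = 0.159, limma). TAP1 and TAPBP were the 2 genes with all cRel-labelled libraries above the controls, beside 12.3% of all tested genes.

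In the RelA knockout none of the 9 genes was called by limma, edgeR or DESeq2, beside 5.55% of all tested genes called by limma. At an unadjusted p under 0.05 limma gave 1 of the 9, HLA-F, beside 20.0% of all tested genes. It had 1490, 1426 and 1367 normalised reads in the RelA knockout, against 1633, 1428 and 1777 in the control (log2 -0.17 ± 0.08 SE, adjusted p = 0.226). TAPBP was lower in all 3 RelA knockout libraries (7251, 7096 and 6750, against 7955, 7706 and 7278 in the control) and did not pass (log2 -0.12, adjusted p = 0.403, limma), beside 11.4% of all tested genes so placed. The log2 fold changes of the 9 genes ran from -0.17 to 0.15, the highest being NLRC5. RELB mRNA was 1887 ± 127 in the RelA knockout and 3319 ± 158 in the control (log2 -0.82, adjusted p = 1.30e-08, limma).

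**Figure D2:**
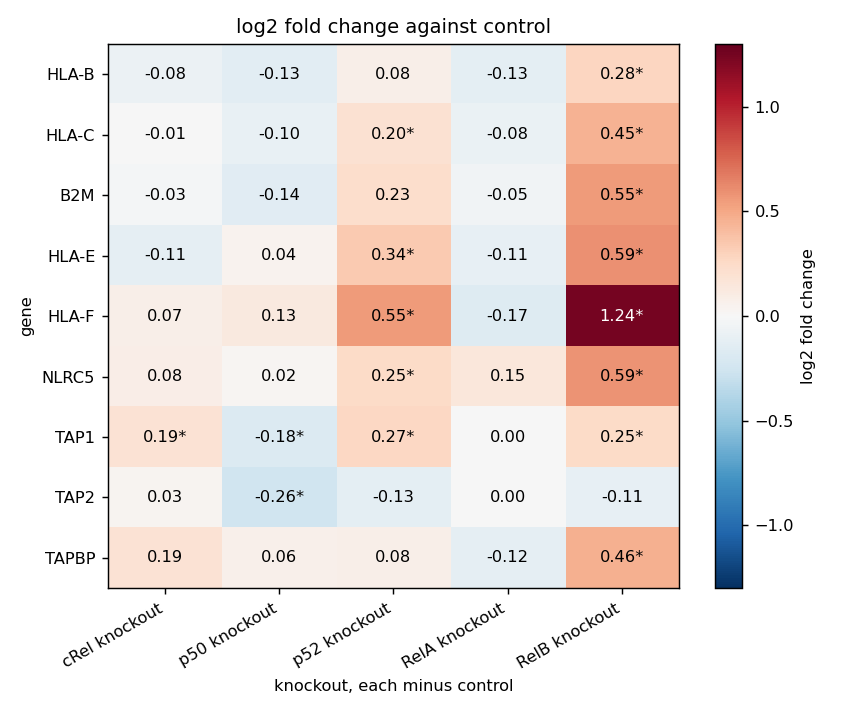
Log2 fold change of each gene (rows) in each knockout minus the control (columns), on the log2(value + 1) scale, with red for higher and blue for lower. An asterisk marks an adjusted p under 0.05 by limma. Asterisks stand on 8 genes in the RelB column, 5 in the p52 column, 2 in the p50 column, 1 in the cRel column and none in the RelA column.

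Setting the knockouts against one another tests whether they differ. A moderated F-test over the 5 knockouts called all 9 genes, beside 78.8% of all tested genes. Over the 10 pairs of knockouts, 54 of 90 tests of a class I gene passed, beside 43.3% of tests over all genes, and 29 of the 36 tests that involved the RelB-labelled libraries passed, beside 57.9% of such tests over all genes. The RelB-labelled libraries were higher than the p52 knockout in 6 of the 9 genes (21.5% of all tested genes), higher than the p50 knockout in 8 (25.4%), higher than the RelA knockout in 8 (33.1%) and higher than the cRel-labelled libraries in 7 (32.4%). None of the 9 was called lower in these 4 comparisons. TAP2 was below the cRel-labelled libraries (log2 -0.14, adjusted p = 0.0546) and the RelA knockout (-0.11, adjusted p = 0.151, limma) without passing. The HLA-B difference from the p50 knockout was lost after quantile normalization (adjusted p = 0.0792, limma).

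Between the partners of the non-canonical pathway, the RelB-labelled libraries exceeded the p52 knockout by a log2 difference of 0.69 ± 0.08 SE in HLA-F (adjusted p = 3.28e-07, limma). The difference was 0.38 for TAPBP, 0.34 for NLRC5, 0.32 for B2M, 0.26 for HLA-E and 0.25 for HLA-C, with adjusted p from 3.17e-04 to 0.0108 in limma. HLA-B missed the threshold (0.20 ± 0.09 SE, adjusted p = 0.0724), and TAP1 (-0.02) and TAP2 (0.02) did not pass. TAP1 was called against the control in both groups and was not called between them. The B2M difference was lost without p52 library 1 (adjusted p = 0.0791) and after quantile normalization (adjusted p = 0.242, limma).

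The 2 NF-kB precursor knockouts differed as well. The p52 knockout was higher than the p50 knockout in 6 of the 9 genes, beside 11.0% of all tested genes. The log2 differences were 0.45 ± 0.05 SE for TAP1, 0.42 for HLA-F, 0.38 for B2M, 0.30 for HLA-C, 0.29 for HLA-E and 0.22 for NLRC5, with adjusted p under 0.05 in limma. The RelA knockout was lower than the cRel-labelled libraries in TAPBP (-0.31, adjusted p = 8.98e-03), HLA-F (-0.25, adjusted p = 0.0473) and TAP1 (-0.20, adjusted p = 0.0145, limma). In that comparison 6.20% of all tested genes were lower. The NLRC5 difference between p52 and p50 was lost on leaving out any of p50 libraries 1, 2 and 3 or p52 libraries 1 and 2 (adjusted p 0.0509 to 0.186, limma). That of B2M was lost without p50 library 1 (adjusted p = 0.0590, limma). Both were also lost in a fit of the p52 and p50 libraries alone (adjusted p = 0.0872 for NLRC5 and 0.0605 for B2M, limma). Without p52 library 3 the B2M difference was 0.25 (adjusted p = 0.0462, limma). Of the RelA and cRel-labelled differences, HLA-F was lost in 15 of 30 alternatives, TAP1 without cRel library 2 (0.0753) or 3 (0.0661) and TAPBP without cRel library 1 (0.0556, limma adjusted p).

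The order of levels was similar for most of the genes. The RelB-labelled libraries ranked highest and the p52 knockout next in HLA-B, HLA-C, HLA-E, HLA-F, B2M and NLRC5. Adjacent groups differed by the test between RelB-labelled and p52 libraries in 5 of these 6 genes, and between p52 and the group below it in HLA-C, HLA-E and HLA-F. The groups further down did not differ from their neighbours in these 6 genes. TAPBP was highest in the RelB-labelled libraries, followed by the cRel-labelled ones (8711 ± 378), and the groups below did not differ from their neighbours. TAP1 had p52, RelB-labelled and cRel-labelled libraries on top (3353, 3297 and 3173) with no difference between neighbours, then the control and the RelA knockout (2777 and 2768), and last the p50 knockout (2448). Its neighbours differed between the cRel-labelled libraries and the control and between the RelA and p50 knockouts. TAP2 had another order, with the cRel-labelled libraries on top (1051) and the RelB-labelled, p52 and p50 libraries lowest (951, 938 and 856). No neighbours in its order differed.

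Per kilobase of exon in the control, the heavy chains HLA-B (13318 ± 1321) and HLA-C (11093 ± 610.0) stood above B2M (8970 ± 722), HLA-E (4201 ± 303) and TAPBP (1512 ± 67.7). TAP1 (578 ± 21.7), HLA-F (371 ± 40.4), NLRC5 (172 ± 11.7) and TAP2 (160.5 ± 6.7) followed. The length was the union of a gene's exons in GENCODE 29. Per kilobase of the median coding transcript, a length added after these levels had been seen, B2M (53881 ± 4339) stood above HLA-C (18105 ± 996). B2M stood below HLA-B (61149 ± 6064). That length was 0.6645 kb for HLA-B, 1.012 kb for B2M and 1.536 kb for HLA-C. Before division by length, HLA-B had fewer normalised reads than B2M in the control (40633 ± 4029 against 54528 ± 4391). The place of HLA-B above B2M thus rests on the lengths. Whether 0.6645 kb suits the HLA-B transcripts in these cells was not tested. The order at the top depends on the length used.

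Ratios within a library show unequal change. HLA-F reached 0.0771 ± 0.0021 of HLA-B in the RelB-labelled libraries and 0.0550 ± 0.0025 in the p52 knockout, against 0.0397 ± 0.0013 in the control. The TAP1 to TAP2 ratio was 3.47 ± 0.09 in the RelB-labelled libraries and 3.58 ± 0.15 in the p52 knockout, against 2.71 ± 0.05 in the control. HLA-B stood at 0.616 ± 0.021 of B2M in the RelB-labelled libraries and at 0.670 ± 0.023 in the p52 knockout, against 0.744 ± 0.014 in the control. In these 6 comparisons the 3 libraries did not overlap the 3 controls, and the two-sided exact permutation p was 0.1, the smallest that 3 against 3 allows. The same p and no overlap were found for HLA-F over HLA-B in the cRel-labelled libraries (0.0440 ± 0.0014) and the p50 knockout (0.0477 ± 0.0045), and for TAP1 over TAP2 in the cRel-labelled libraries (3.03 ± 0.26). Over the 20 ratio comparisons made, the Benjamini-Hochberg adjusted exact permutation p of these 9 was 0.143.

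**Figure D3:**
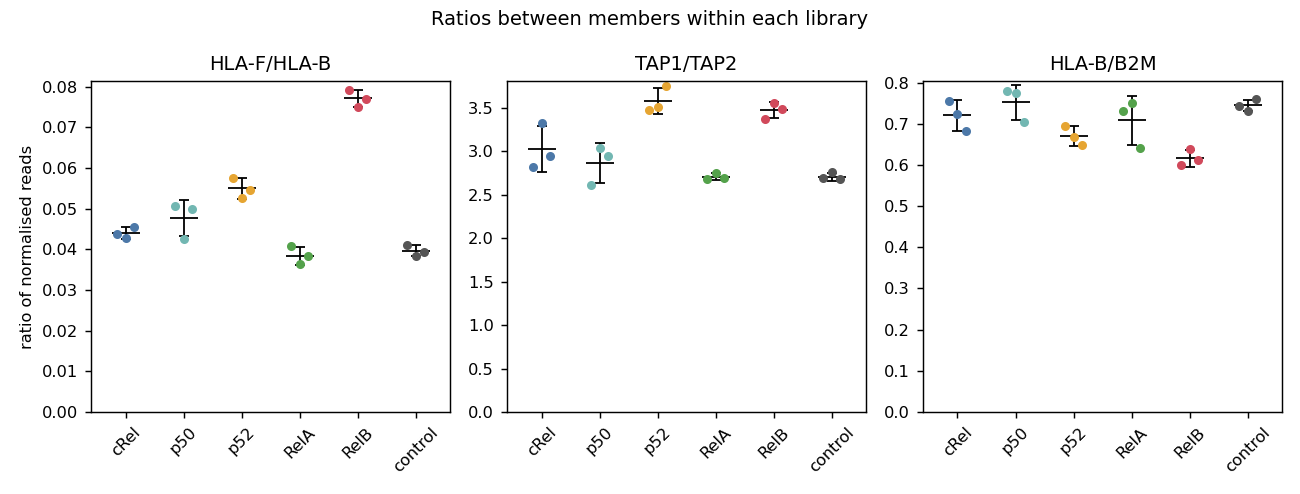
Ratio of normalised reads of 2 genes within each library (vertical axes, starting at 0; points are libraries, dashes means and bars SD) in the 5 knockouts and the control. The RelB-labelled, p52 and cRel-labelled libraries lie above the controls for HLA-F over HLA-B and for TAP1 over TAP2, the p50 libraries for HLA-F over HLA-B, and the RelB-labelled and p52 libraries lie below the controls for HLA-B over B2M.

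Across the 18 libraries, 8 of the genes varied together and TAP2 apart. The Pearson correlation of log2 values over the 28 pairs without TAP2 ran from 0.448 to 0.959 with a median of 0.737, and over the 8 pairs with TAP2 from -0.362 to 0.287. The libraries share group effects and the RelB-labelled ones stand apart, so the same was computed over the other 15 libraries. There the pairs without TAP2 ran from -0.328 to 0.895 with a median of 0.498, and the pairs with TAP2 from -0.471 to 0.375. TAP2 left out, TAPBP then ran from -0.328 with B2M to 0.253 with NLRC5, and NLRC5 from -0.175 with HLA-B to 0.487 with TAP1. HLA-B, HLA-C, HLA-E, HLA-F and B2M still ran from 0.643 to 0.895 with one another, and TAP1 from 0.402 to 0.710 with them. All 8 genes thus varied together only with the RelB-labelled libraries included, while the genes other than TAPBP and NLRC5 did so without them. These are descriptions with no test.

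Each gene also had a closest match among genes with a mean of at least 100. Over 18 libraries these were NME3 for HLA-C (r = 0.984), CD82 for HLA-E (0.982), TMEM120A for HLA-F (0.973), ILDR1 for TAP1 (0.971) and CCNDBP1 for B2M (0.948). C12orf57 was closest to HLA-B (0.946), CAMK4 to NLRC5 (0.937), NFKBID to TAPBP (0.899) and UBR7 to TAP2 (0.898). Without the RelB-labelled libraries the lowest of these 9 correlations were 0.727 for TAPBP and 0.789 for NLRC5, and the others ran from 0.898 to 0.972. The matches were chosen for the highest r over all 18 libraries and not chosen again, so these values are no independent check. TMEM120A averaged 2328 normalised reads in the RelB-labelled libraries, 1095 in the p52 knockout and 625 in the control.

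The genes that supply and trim peptides moved in both directions. Over all tested genes, 33.1% rose and 34.7% fell in the RelB-labelled libraries, 24.5% rose and 26.4% fell in the p52 knockout, and 17.0% rose and 19.6% fell in the p50 knockout. The shares were 4.17% higher and 1.92% lower in the cRel-labelled libraries and 2.92% higher and 2.63% lower in the RelA knockout, and the counts of this and the following gene lists stand beside them. Of 11 tested genes, 2 rose and 4 fell in the RelB-labelled libraries, 3 rose and 5 fell in the p52 knockout, none rose and 5 fell in the p50 knockout, and none was called in the cRel-labelled or RelA knockout libraries. PSMB8, an immunoproteasome subunit, had 3414, 3484 and 3668 normalised reads in the RelB-labelled libraries, against 5393, 5524 and 6605 in the control (log2 -0.72, adjusted p = 2.00e-07, limma). PSMB9, an immunoproteasome subunit encoded beside TAP1, averaged 1807 ± 138 in the RelB-labelled libraries and 1663 ± 225 in the control and did not pass. The proteasome activators PSME3 (log2 -0.77) and PSME2 (-0.47) and the peptidase TPP2 (-0.26) also fell in the RelB-labelled libraries. The aminopeptidases LNPEP (log2 1.08) and ERAP2 (0.93) rose there, ERAP2 to 491, 521 and 508 in the RelB-labelled libraries, against 268, 259 and 270.2 in the control. The median of the list was 0.059 in the RelB-labelled libraries, beside -0.0038 over all genes.

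Most folding partners in the endoplasmic reticulum fell in the RelB-labelled and p52 knockout libraries. Of 10 tested genes, 2 rose and 6 fell in the RelB-labelled libraries, 2 rose and 7 fell in the p52 knockout and 1 rose and 5 fell in the p50 knockout. In the cRel-labelled libraries 1 fell, and none was called in the RelA knockout. Over all tested genes 34.7% fell in the RelB-labelled libraries, 26.4% in the p52 knockout and 19.6% in the p50 knockout. CALR (calreticulin), a chaperone of the loading complex, had 13917, 15601 and 15074 normalised reads in the RelB-labelled libraries and 13985, 14174 and 13996 in the p52 knockout, against 23892, 26762 and 28013 in the control. It fell by 0.82 on the log2 scale in the RelB-labelled libraries and by 0.90 in the p52 knockout. PDIA3 (ERp57), which is disulfide-linked to tapasin in that complex, fell by 0.63 in the RelB-labelled libraries and by 0.65 in the p52 knockout. SEC61A1, a subunit of the protein channel, fell by 0.64 in the RelB-labelled libraries and by 0.53 in the p52 knockout. TAPBPL (TAPBPR), a tapasin relative that edits peptides outside the loading complex, rose to 714, 646 and 712 in the RelB-labelled libraries, against 411, 375 and 436 in the control (log2 0.76, adjusted p = 1.59e-08, limma). The median of the list was -0.36 in the RelB-labelled libraries and -0.42 in the p52 knockout.

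**Figure D4:**
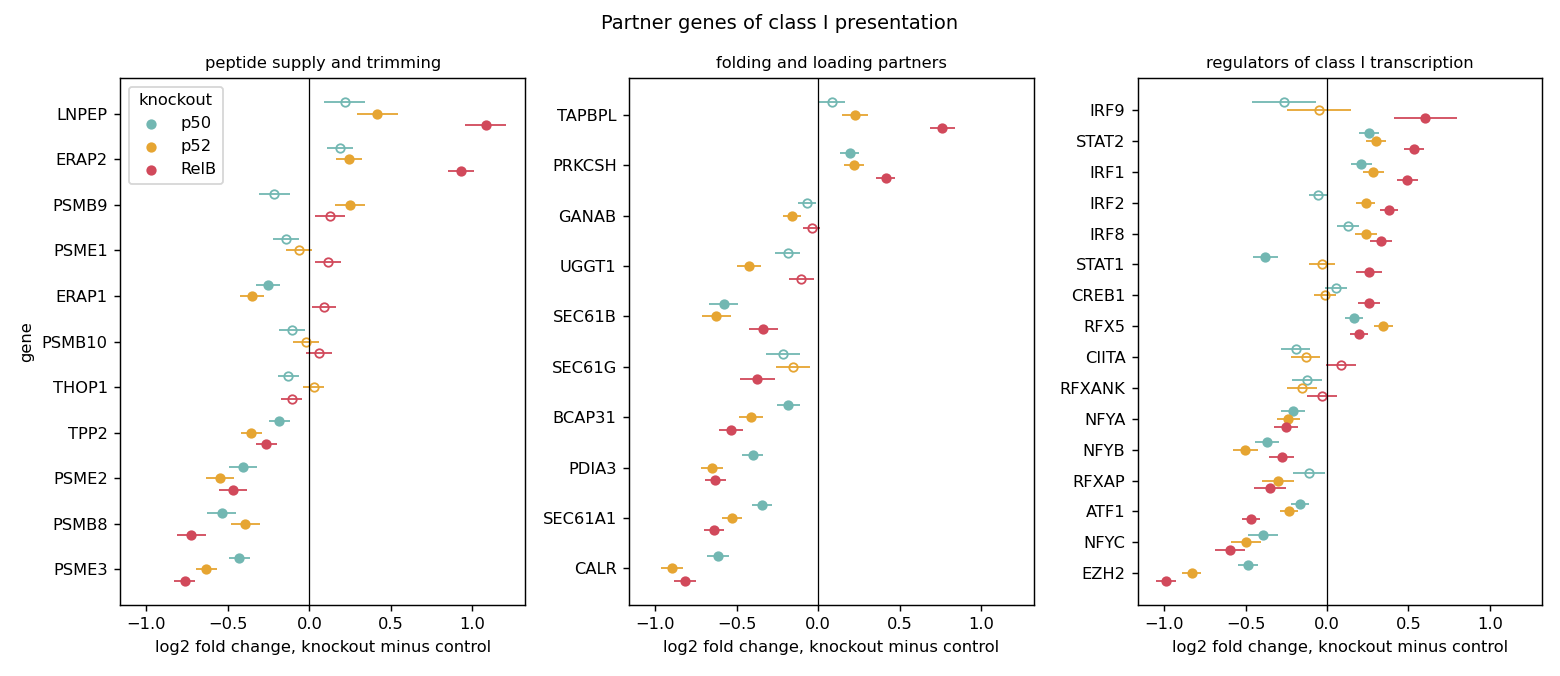
Log2 fold change against the control (horizontal axes; bars are SE) of genes of peptide supply, of folding and loading, and of class I regulation (rows) in the p50, p52 and RelB-labelled libraries. Filled points passed an adjusted p of 0.05 by limma and open points did not. TAPBPL, LNPEP and ERAP2 lie to the right in the RelB-labelled libraries, and CALR, PDIA3, PSME3 and EZH2 lie to the left.

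Known regulators of class I transcription moved in both directions. Of 16 tested genes, 8 rose and 6 fell in the RelB-labelled libraries, 5 rose and 6 fell in the p52 knockout, 3 rose and 6 fell in the p50 knockout, and 3 rose in each of the cRel-labelled and RelA knockout groups. In the p52 knockout 24.5% of all tested genes rose and 26.4% fell, and in the RelB-labelled libraries 33.1% rose and 34.7% fell. IRF1, an interferon-induced activator that binds the ISRE, averaged 1892 ± 102 in the RelB-labelled libraries and 1343 ± 78.6 in the control (log2 0.49, adjusted p = 5.43e-07, limma). It also rose in the p52 (0.28), p50 (0.21) and cRel-labelled (0.32) libraries. STAT2, a subunit of the interferon-response complex, rose by 0.54 in the RelB-labelled libraries and by 0.30 in the p52 knockout. RFX5, a DNA-binding subunit of the RFX complex, rose by 0.20 in the RelB-labelled libraries and by 0.35 in the p52 knockout. EZH2, the histone methyltransferase of Polycomb repressive complex 2, fell to 1298 ± 46.3 in the RelB-labelled libraries and 1447 ± 66.7 in the p52 knockout, against 2574 ± 93.2 in the control (log2 -0.99 and -0.83, adjusted p = 4.60e-12 and 8.98e-10, limma). NFYB, a subunit of the Y-box factor NF-Y, fell by 0.28 in the RelB-labelled libraries and by 0.50 in the p52 knockout.

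Of the class I-like genes, most of those tested rose in the RelB-labelled libraries. Of 8 tested genes, 6 rose and 1 fell in the RelB-labelled libraries, 4 rose and 1 fell in the p52 knockout, 2 rose and 1 fell in the p50 knockout, and none was called in the other groups. Calls in either direction made up 67.8% of all tested genes in the RelB-labelled libraries, 50.8% in the p52 knockout and 36.7% in the p50 knockout, against 6.09% in the cRel-labelled libraries and 5.55% in the RelA knockout. MICA, a stress-induced ligand of the receptor NKG2D, averaged 252 ± 7.2 in the RelB-labelled libraries and 114 ± 16.4 in the control (2.21-fold, adjusted p = 1.15e-08, limma). MR1, which presents vitamin B metabolites to MAIT cells, averaged 1681 ± 53.7 in the RelB-labelled libraries and 978 ± 50.3 in the control (log2 0.78). FCGRT, the neonatal Fc receptor heavy chain that also pairs with B2M, averaged 94.1 ± 7.8 in the RelB-labelled libraries and 28.2 ± 7.3 in the control (log2 1.74, adjusted p = 1.16e-05, limma). ULBP2, another NKG2D ligand, averaged 21.3 ± 5.9 in the RelB-labelled group, 94.4 ± 13.2 with p52 knocked out and 13.8 ± 3.3 with p50 knocked out, against 40.7 ± 7.3 in the control, and the p52 increase (log2 1.20) and the other falls passed the test.

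The interferon-stimulated genes moved in different directions among the knockouts. Of 16 tested genes, the RelB-labelled libraries had 8 higher and 2 lower, the p52 knockout 3 higher and 6 lower, the p50 knockout 2 higher and 11 lower, the cRel-labelled group 3 higher and 3 lower, and the RelA knockout 9 higher and none lower. Over all tested genes 33.1% were higher in the RelB-labelled libraries, 24.5% in the p52 knockout, 17.0% in the p50 knockout, 4.17% in the cRel-labelled libraries and 2.92% in the RelA knockout, and 34.7%, 26.4%, 19.6%, 1.92% and 2.63% were lower in the same groups. The RelB-labelled calls with the smallest p were GBP2 (log2 2.07), MX1 (0.65) and MX2 (0.56), all higher. IFI44L, a gene with low values, averaged 31.4 ± 1.6 in the RelB-labelled libraries, 6.1 ± 0.4 in the p52 knockout and 66.7 ± 3.3 in the RelA knockout, against 27.1 ± 3.2 in the control. It was also called lower in the p50 knockout (log2 -1.88) and the cRel-labelled libraries (-0.91), the last call being lost in 5 of 29 alternatives. Of the 9 class I genes, 8 rose in the RelB-labelled libraries, 5 rose in the p52 knockout, 2 fell in the p50 knockout, 1 rose in the cRel-labelled libraries and none was called in the RelA knockout. The part of the interferon-stimulated genes in the class I values was not tested. The median of this list was 0.24 in the RelB-labelled libraries, 0.43 in the RelA knockout and -0.47 in the p50 knockout.

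Genes that lie beside or opposite the class I genes also changed. Of 11 tested genes, 8 rose and 2 fell in the RelB-labelled libraries, 4 rose and 3 fell in the p52 knockout, 2 rose and 2 fell in the p50 knockout, and none was called in the other groups. Calls in either direction were 67.8% of all tested genes in the RelB-labelled libraries and 50.8% in the p52 knockout, with 33.1% and 24.5% higher. HCP5, a noncoding RNA of the class I region, averaged 2146 ± 160.5 in the RelB-labelled libraries and 1154 ± 49.7 in the control (log2 0.89). TRIM69 (935 ± 60.5 in the RelB-labelled libraries and 492 ± 57.1 in the control) and PATL2 (106 ± 7.2 in the RelB-labelled libraries and 56.2 ± 3.5 in the control) lie near B2M and rose as well. PSMB8-AS1, antisense in the TAP1 region, fell to 137 ± 8.2 in the RelB-labelled libraries, against 230 ± 26.0 in the control. DAXX, which lies near TAPBP, fell by 0.61 on the log2 scale.

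Marker sums of other cell types also differed between some knockouts and the control. The 7 T and NK cell markers in the table summed to 722 to 805 normalised reads in the RelB-labelled libraries and 433 to 586 in the control. NKG7 gave most of it. The sum was 346 to 371 in the cRel-labelled libraries. Of the 4 markers tested, 1 rose and 1 fell in the RelB-labelled libraries, beside 33.1% and 34.7% of all tested genes. The 6 monocyte and macrophage markers, mostly CSF1R and ITGAM, summed to 516 to 538 in the control. The sums were higher in the RelB-labelled libraries (908 to 982), the p52 knockout (837 to 944), the p50 knockout (825 to 904) and the cRel-labelled libraries (564 to 655). The RelA knockout was lower, at 460 to 505. CD3D stayed at or under 1.63 and CD14 at or under 3.16 in every library. The 9 B-cell markers summed to 138018 to 151323 in the RelB-labelled libraries and 133463 to 148251 in the control. CD74 and MS4A1 gave most of this sum, so it says little of the other markers. Of the 9, 4 rose and 1 fell in the RelB-labelled libraries, beside 33.1% and 34.7% of all tested genes. The 5 epithelial or packaging cell markers summed to 1251 to 1608 in the RelB-labelled libraries and 1167 to 1363 in the control, mostly COL1A1. They summed to 746 to 1038 in the p50 knockout. The part of these markers in the class I values was not tested.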

How the data were processed

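Per the submitters' processing notes, the tools were STAR 2.5.2b for alignment to GRCh37, featureCounts 1.5.1 for counting and DESeq2 1.14.1 for normalisation. The sources used here give no annotation release, strand setting or gene filter. The deposited values were a normalised signal: the authors' read counts divided by 1 size factor per library. Undoing that factor gave whole reads, to within 0.0001, for 100% of 308790 values. Intervals on counts were not used. P-values measure only the spread between libraries, which the labels call biological replicates.

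Libraries were grouped by their titles. limma 3.58.1 (R 4.3.3) with an intensity trend was fitted to log2(value + 1) of all 18 libraries for 12381 genes with a mean of at least 10, two-sided, with Benjamini-Hochberg adjustment per contrast; it was tested on simulated data. Pairing of replicate numbers was checked and not used. edgeR 4.0.16 and DESeq2 1.42.0 on the recovered reads, and the settings in the closing section, were alternatives. RefSeq promoters (GRCh38.p14) and GENCODE 29 lengths were used; no GRCh37 coordinates are given. Text named all 9 members, up to 3 called genes with the smallest p per list and knockout, and the closest match of each member; PSMB9, HLA-F-AS1 and the marker genes were named outside that rule. The members and lists were chosen with earlier results of these data known. Of 116 list entries, 105 were in the table, and the rest were not analysed here.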

Additional observations from a re-analysis of the deposited data

How the results depend on the processing

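Over 30 alternatives, the 16 called effects of the 9 genes against the control kept their direction, and 11 of them were called under every alternative. The number of genes called in the RelB-labelled libraries was 8 under every alternative except 7 without control library 2, that of the RelA knockout was 0 throughout and the F-test called 9 throughout. The count for the cRel-labelled libraries was 0 in a fit of the compared groups only and ran from 0 to 1 with 1 library left out. The count for the p50 knockout was 1 in a fit of the compared groups only. After quantile normalization it was 3 (TAP2 lower, HLA-E and TAPBP higher), and that of the p52 knockout was 7. Without control library 3 and p52 library 3 together, an alternative chosen after seeing the data, 8 genes were called in the RelB-labelled libraries, 5 in p52, 3 in p50, 1 in cRel and 0 in RelA. With a replicate block the counts were 8, 6, 2, 1 and 0 in the same groups, and pairs of knockouts gave 59 calls against 54; the call it added was B2M in the p52 knockout (adjusted p = 0.0202, limma). The labels do not say that libraries of equal number are pairs. Correlations with the same-numbered control exceeded 0.1 for all 3 libraries in 0 of 5 knockouts, but 16 of 18 libraries were closest to a library with their own number. Whether libraries of equal number share a batch was not tested, and the main fit does not model it.

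The effects that turned sign were small and not called. After quantile normalization the log2 fold change was 0.0085 for HLA-B, 0.13 for HLA-C and 0.14 for B2M in the cRel-labelled libraries, 0.029 for HLA-B and 0.018 for HLA-C in the p50 knockout, and 0.015 for HLA-C, 0.0051 for TAP1 and 0.016 for TAP2 in the RelA knockout. With TMM factors it was 0.0078 for HLA-C in the cRel-labelled libraries, and 0.0064 for TAP1 and 0.0063 for TAP2 in the RelA knockout, and edgeR gave 0.0076, 0.0055 and 0.0043 for these. After a length correction it was 0.057 for HLA-C and -0.011 for NLRC5 in the cRel-labelled libraries, -0.069 for NLRC5 in the p50 knockout and 0.0039 for TAP1 in the RelA knockout. Without control library 3 and p52 library 3 together it was 0.0015 for HLA-B, 0.034 for HLA-C and 0.036 for B2M in the cRel-labelled libraries, -0.027 for NLRC5 in the p50 knockout, and 0.013 for B2M, 0.022 for TAP1 and 0.030 for TAP2 in the RelA knockout. Leaving out 1 library at a time gave -0.14 to 0.0015 for HLA-B, -0.043 to 0.034 for HLA-C, -0.0099 to 0.15 for HLA-F, -0.077 to 0.036 for B2M and -0.33 to 0.17 for REL in the cRel-labelled libraries. It gave -0.013 to 0.091 for HLA-E and -0.027 to 0.072 for NLRC5 in the p50 knockout, and -0.024 to 0.16 for HLA-B in the p52 knockout. In the RelA knockout it gave -0.10 to 0.013 for B2M, -0.032 to 0.022 for TAP1 and -0.027 to 0.030 for TAP2. The cause of these changes was not tested. At 15.2 M reads or more per library, counting alone gives TAP2, the lowest of the 9 genes, an SD of 28.1 to 34.0 normalised reads by group, beside SDs of 10.4 to 66.9 between libraries. For B2M the same values were 214 to 303 from counting and 2897 to 10634 between libraries.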
